A study of Mus musculus with 10 samples.

Results

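The proteinase-activated receptor (PAR) genes were followed over 10 arrays of mouse urinary bladder. The genes were taken by name: F2r encodes PAR1, F2rl1 PAR2, F2rl2 PAR3 and F2rl3 PAR4. Of these 4 genes, 3 have a probe among the 4638 probes that the platform annotation names. They stand among 4533 named genes. F2r, F2rl2 and F2rl3 have 1 probe each, and F2rl1 has none there. The probes are those designed to U55075 (F2r), U92972 (F2rl2) and AF080215 (F2rl3).

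PARs are cell surface receptors that sense proteases. A protease cuts the outer amino terminus, and the end that is left acts as a tethered agonist on the same receptor. Thrombin cuts PAR1, PAR3 and PAR4, whereas trypsin and mast cell tryptase cut PAR2. PAR1 couples to several G proteins and serves endothelium, smooth muscle and fibroblasts, and on mouse platelets PAR3 presents thrombin to PAR4. A cleaved receptor cannot be reused, so it is internalized and sorted to lysosomes, and the cell surface is refilled from stores and from new transcripts.

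The arrays were Clontech Atlas mouse plastic 5 K arrays hybridized with 1 colour of 33P-labelled cDNA. Female C57BL/6J mice (WT) and PAR1-/- mice (PAR1ko in the labels), in which the gene of PAR1 is disrupted, received saline, LPS or SP in the bladder under anaesthesia. LPS (Escherichia coli lipopolysaccharide, strain 055:B5) was given at 100 µg/ml. SP (substance P, a neuropeptide of sensory nerves) was given at 10 µM to WT mice and at 20 µM to PAR1-/- mice by the labels, and at 10 µM to all mice by the methods, so with SP the genotype and the labelled dose cannot be told apart. LPS and SP were followed to 4 and 24 h, and saline to 24 h only, so a ratio at 4 h also compares different times. Every condition is 1 array, made from 8 bladders homogenized together. No array was repeated, so neither an error nor a p-value goes with a ratio between 2 arrays. The sources used here do not give the mice's age. In a whole bladder, fewer cells of a type and less RNA per cell cannot be told apart.

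Values are spot intensities in AtlasImage units, recovered from the deposited standard scores. The median intensity ran from 10 to 23 over the arrays. Background was set per array, 3 SD above the peak of its intensities. Of all probes, 30.8% lay above it on the saline array of WT bladders and 37.1% on that of PAR1-/- bladders. On the WT arrays the share was 39.1% (LPS at 4 h), 11.4% (LPS at 24 h), 43.2% (SP at 4 h) and 36.9% (SP at 24 h). On the PAR1-/- arrays it was 40.4%, 38.4%, 48.2% and 42.1% in the same order. The low share belongs to an array on which 87.0% of the probes hold the value 15. Where a gene had more than 1 probe, the 23 pairs of such probes correlated over the 10 arrays with a median of 0.10, against 0.23 over all pairs, so how well a probe stands for its gene is not known. Of 3 urothelial probes, Krt18 and Upk2 were under background on both saline arrays, and Krt19 on the PAR1-/- one. Of 6 smooth muscle probes, 4 were above it after saline in WT and 2 in PAR1-/- bladders. The markers of the bladder wall were therefore only partly detected.

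The promoters of the 3 genes with a probe are shown because these are the regions in which their transcripts start, and because F2r alone of the 3 had a large signal on any array. Each runs from 250 bases before to 50 after the start in RefSeq (GRCm38.p6), written 5′ to 3′ along the gene. Capitals mark matches on either strand to TGANTCA, the motif of AP-1 factors, or to the GC box read by Sp1, whose letters are GGGCGG. The TATA box (its letters are TATAAA), the STAT motif, spelt TTCNNNGAA, and the NF-kB motif were searched too, on both strands, and match in none of the 3 windows.
F2r (PAR1), chr13:95618417-95618716, minus strand: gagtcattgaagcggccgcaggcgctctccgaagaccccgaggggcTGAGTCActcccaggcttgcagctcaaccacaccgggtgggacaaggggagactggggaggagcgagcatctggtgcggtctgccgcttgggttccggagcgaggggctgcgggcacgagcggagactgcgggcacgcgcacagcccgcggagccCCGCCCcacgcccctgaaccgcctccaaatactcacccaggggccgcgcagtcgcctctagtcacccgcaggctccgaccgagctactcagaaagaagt
F2rl2 (PAR3), chr13:95696670-95696969, plus strand: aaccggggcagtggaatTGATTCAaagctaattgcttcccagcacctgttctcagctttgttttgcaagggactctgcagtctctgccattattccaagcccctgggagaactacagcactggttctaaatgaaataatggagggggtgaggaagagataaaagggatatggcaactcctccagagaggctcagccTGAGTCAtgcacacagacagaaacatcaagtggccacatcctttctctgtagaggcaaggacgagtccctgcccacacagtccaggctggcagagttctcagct
F2rl3 (PAR4), chr8:72761409-72761708, plus strand: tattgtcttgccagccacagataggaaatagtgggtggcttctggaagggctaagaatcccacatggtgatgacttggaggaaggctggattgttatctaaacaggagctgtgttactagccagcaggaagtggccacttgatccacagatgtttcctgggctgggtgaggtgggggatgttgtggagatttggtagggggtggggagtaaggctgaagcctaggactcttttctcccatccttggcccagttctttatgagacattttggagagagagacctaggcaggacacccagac
The F2r window holds 1 AP-1 match, 204 bases before the start, and 1 GC box match, 49 bases before it. The F2rl2 window holds 2 AP-1 matches, 233 and 54 bases before the start, and no GC box. The F2rl3 window holds no match to any of the 5 motifs. Of all 32851 promoters of this length, 7.8% hold an AP-1 match and 35.7% a GC box. Matches to the TATA box are in 13.6% of them, to the STAT motif in 8.3% and to the NF-kB motif in 8.5%. The GC content was 68.7% for F2r, 50.7% for F2rl2 and 51.3% for F2rl3, with a median of 52.7% over all promoters. In RefSeq, F2rl1, F2r and F2rl2 lie near each other on chromosome 13, with Iqgap2 the protein-coding gene listed between F2r and F2rl2. F2rl3 lies on chromosome 8, away from the others.

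F2r was bright on 1 array, that of WT bladders at 4 h after LPS, where its intensity was 195. The other WT arrays gave 10 with saline, 15 with LPS at 24 h, and 22 and 11 with SP at 4 and 24 h. None of these 4 values was above background, and the higher SP value lay just under its threshold of 22.2. The PAR1-/- arrays gave 11 with saline, 17 and 18 with LPS at 4 and 24 h, and 51 and 21 with SP at 4 and 24 h. The 2 SP values were above their thresholds of 23.7 and 18.9. F2r was thus above background on 3 arrays, 1 of WT and 2 of PAR1-/- bladders. The LPS value of 18 in PAR1-/- bladders missed a threshold of 18.2.

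Which stretch of the transcript the F2r probe covers is not stated in the labels or methods. A disrupted gene can still be transcribed outside the deleted part, so these values do not check the genotype labels. The saline arrays, at 10 in WT and 11 in PAR1-/- bladders, were under background in both genotypes.

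**Figure D1:**
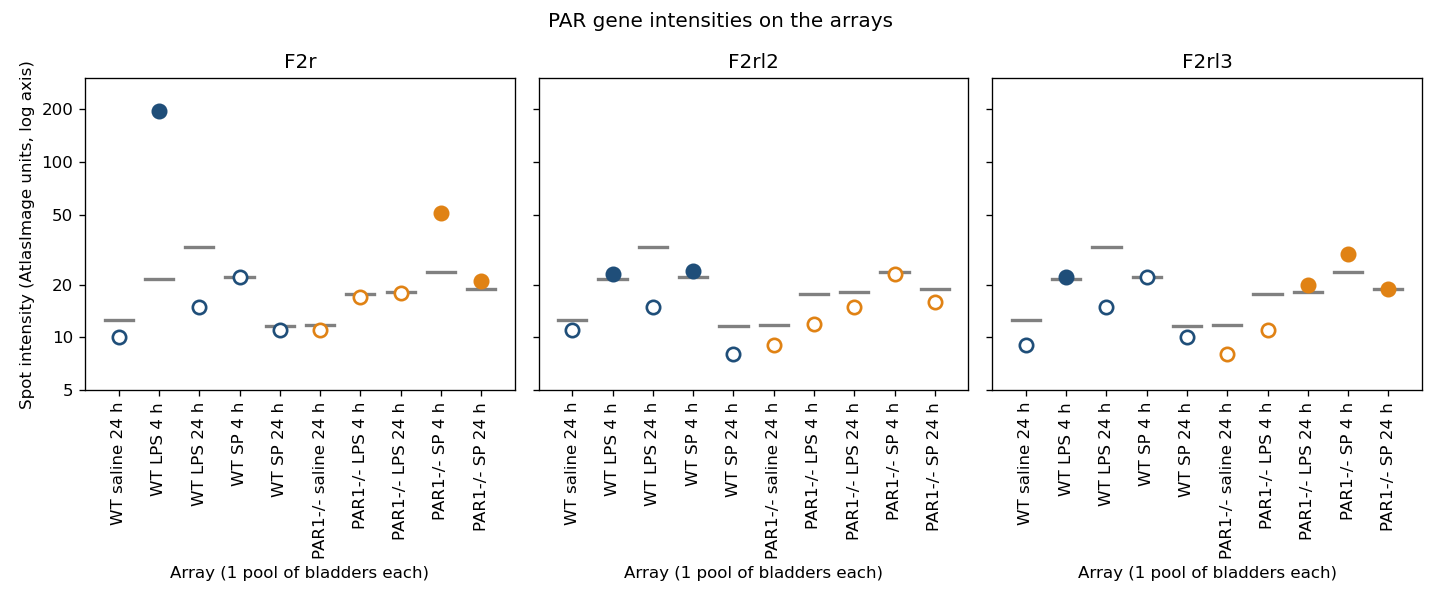
Spot intensity (log axis, AtlasImage units) of F2r, F2rl2 and F2rl3 on each of the 10 arrays, WT in blue and PAR1-/- in orange. Filled points are above background, open points are not, and grey bars are the background threshold of each array; each point is 1 array, so there are no error bars. F2r reached 195 on the LPS 4 h array of WT bladders and 51 on the SP 4 h array of PAR1-/- bladders, while F2rl2 and F2rl3 stayed between 8 and 30.

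F2rl2 was close to background on all 10 arrays, with intensities from 8 to 24. PAR3, its product, is mainly known as a thrombin-binding cofactor. The WT arrays gave 11 with saline, 23 and 15 with LPS at 4 and 24 h, and 24 and 8 with SP at 4 and 24 h. Both WT values at 4 h were above background, by 1.42 intensity units with LPS and by 1.80 with SP. Its PAR1-/- values were 9 with saline, 12 and 15 with LPS, and 23 and 16 with SP. No PAR1-/- array had F2rl2 above background.

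F2rl3 ran from 8 to 30. Its product, PAR4, is the receptor through which thrombin signals in mouse platelets. WT bladders gave 9 with saline, 22 and 15 with LPS at 4 and 24 h, and 22 and 10 with SP. Of these only the first LPS value was above background, by 0.418 units. PAR1-/- bladders gave 8 with saline, 11 and 20 with LPS at 4 and 24 h, and 30 and 19 with SP. The last 3 of these were above background, by 1.83, 6.26 and 0.0995 units. F2rl3 was thus above background on 4 arrays, 3 of them of PAR1-/- bladders.

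Over the 3 genes, 9 of 30 intensities were above background. Over all probes and arrays the share was 36.8%. On the LPS 24 h array of WT bladders all 3 genes hold the value 15, which most probes hold there, and that array therefore gives no information on them.

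Each array has its own brightness, and the intensities of the PAR genes ran with it. Spearman's correlation with the median intensity of the array, over 10 arrays and given as a description, was 0.95 for F2r, 0.95 for F2rl2 and 0.98 for F2rl3. Pearson's on log2 intensity was 0.67 for F2r and 0.94 for each of the other two. Over the same arrays the log2 intensities of F2rl2 and F2rl3 had a Pearson correlation of 0.92 before and 0.62 after normalization between arrays. For F2r and F2rl2 it was 0.75 and 0.66, and for F2r and F2rl3 0.70 and 0.61. The F2r value of 195 left this relation.

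The percentile of a probe among all probes of its array is free of brightness. On the LPS 4 h array of WT bladders F2r lay at the 98.4th percentile, where 79 probes were at or above 195. It lay at the 77.1st percentile on the SP 4 h array of PAR1-/- bladders and between the 41.4th and 64.5th on the other 8 arrays. F2rl2 lay between the 9.1th and 65.0th percentiles and F2rl3 between the 8.7th and 65.5th. Their highest places were the LPS 4 h array of WT bladders for F2rl2 and the LPS 24 h array of PAR1-/- bladders for F2rl3.

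**Figure D2:**
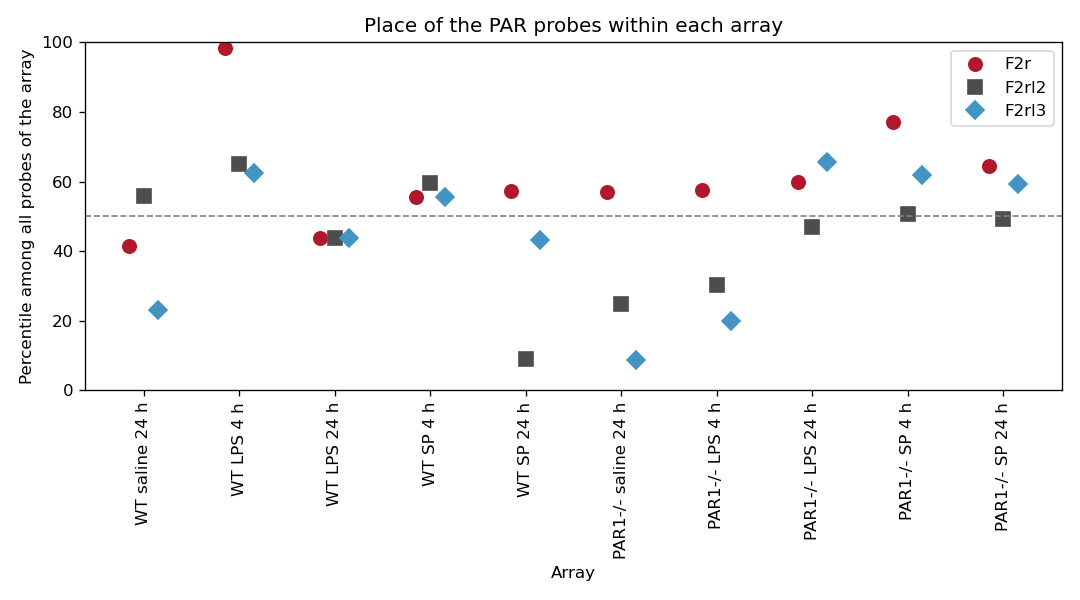
Percentile of the F2r (circles), F2rl2 (squares) and F2rl3 (diamonds) probes among all probes of each array, with the dashed line at the middle of the array; 1 value per array, no error bars. F2r stood at 98.4 on the LPS 4 h array of WT bladders and at 77.1 on the SP 4 h array of PAR1-/- bladders, and all other points lay at 65.5 or lower.

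After normalization by robust linear regression, the challenged arrays were set against saline, within each genotype. Intensities under background were raised to the threshold, so that a ratio with saline at background is a lower bound. All 3 genes were at background on both saline arrays. A bound was given only where the challenged value was above background and its normalized level exceeded the normalized saline threshold. Of 24 ratios, 4 could be given, all as lower bounds, and the other comparisons gave none. F2rl3 at 4 h of SP in PAR1-/- bladders, at 30 against 8 with saline, was above background. Its normalized level of 14.6 lay under the saline threshold of 20.7. Before normalization it was 3.75-fold, when the median of all probes was 2.22-fold.

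At 4 h of LPS in WT bladders F2r was at least 8.98-fold the saline level, a log2 ratio of at least 3.17. The place of this bound among other ratios depends on the floor. It was the only PAR ratio beyond the 3-fold limit that the study used. In that comparison 2.67% of all probes passed 3-fold, as a ratio or a lower bound, so 1 such value among 3 genes is not by itself a result about the family. Before normalization and with no floor the ratio was 19.5, when the median of all probes was 1.73, and with normalization but no floor it was 11.7.

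The other bounds lay close to 1. F2rl2 was at least 1.05-fold and F2rl3 at least 1.00-fold on that same WT array. F2r was at least 1.12-fold at 4 h of SP in PAR1-/- bladders. For this last value the intensities rose from 11 to 51, 4.64-fold before normalization, when the median of all probes was 2.22-fold and 0.464% of probes were called above 3 after normalization. With normalization and no floor the ratio was 1.22.

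In WT bladders given SP no PAR gene had a ratio, although 1.72% of all probes were called above 3 at 4 h and 0.323% at 24 h. With LPS at 24 h none had one in either genotype, where 0.242% (WT) and 0.444% (PAR1-/-) of probes were called above 3. In PAR1-/- bladders at 4 h of LPS, where 0.727% were called, F2r went from 11 to 17, F2rl2 from 9 to 12 and F2rl3 from 8 to 11, all under background. Their intensities before normalization were 1.55, 1.33 and 1.38 times the saline ones, and the median of all probes was 1.46. After SP at 24 h in PAR1-/- bladders, where 0.707% were called, F2r and F2rl3 were above background with no ratio.

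The study looked for transcripts that passed 3-fold in WT bladders and were not altered in PAR1-/- bladders. Read here as a ratio or bound above 3 in WT and none beyond 3-fold in PAR1-/- bladders, this held for F2r and for 2.95% of all probes. In PAR1-/- bladders 3 of the 4 F2r comparisons gave no ratio, and without normalization the fourth, SP at 4 h, was at least 4.34-fold, so that F2r would not meet it. F2r is the gene disrupted in the PAR1-/- mice, so its values there are not a response of an intact gene. The study's own list of PAR1-dependent transcripts does not name F2r.

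Signals far above those of all other arrays were few, but F2r was not alone in having one. On the LPS 4 h array of WT bladders, 580 probes were brighter than on every other array, and 34 (0.686% of all) by at least 3-fold. For F2r the factor over the next array was 3.82, and 22 probes had at least that factor. The SP 4 h array of WT bladders had 30 such probes at 3-fold and the SP 4 h array of PAR1-/- bladders had 23, against 0 to 5 on each of the other 7. Pdgfra and Cct4, which have the neighbouring probe numbers, were at 50 and 41 on the array where F2r was 195. The layout of the spots is not given, and the part of a spot defect was not tested.

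The levels of the genotypes were also set side by side. After LPS at 4 h the log2 normalized level of F2r, with no floor, was lower in PAR1-/- than in WT bladders, by -3.53 for PAR1-/- minus WT. The PAR1-/- intensity of 17 was under its threshold of 17.6, and with both values raised to the common floor of 31.3 the difference was -2.59. In the other 4 conditions the difference was 0.24 (saline), 0.60 (LPS at 24 h), 0.70 (SP at 4 h) and 0.09 (SP at 24 h). With saline and with LPS at 24 h both values were under background, so these differences carry no direction. With SP at 24 h the normalized PAR1-/- level of 19.2 did not reach the WT threshold of 19.4, which gives no direction either. With SP at 4 h the normalized PAR1-/- level was 23.1. The WT level there lay under its threshold of 14.4, so the PAR1-/- level was higher. At the common floor, which the LPS 24 h array of WT bladders sets, each of the 4 differences was 0. F2rl2 and F2rl3 differed by -0.88 and -0.93 after LPS at 4 h, the lowest difference of each. Their PAR1-/- intensities of 12 and 11 were under background, and the WT ones passed it by only 1.42 and 0.418 units. At the common floor both differences were 0. As a yardstick, the log2 difference between the saline arrays of the genotypes had an SD of 0.47, or 1.39-fold, over 1225 probes above background on both.

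**Figure D3:**
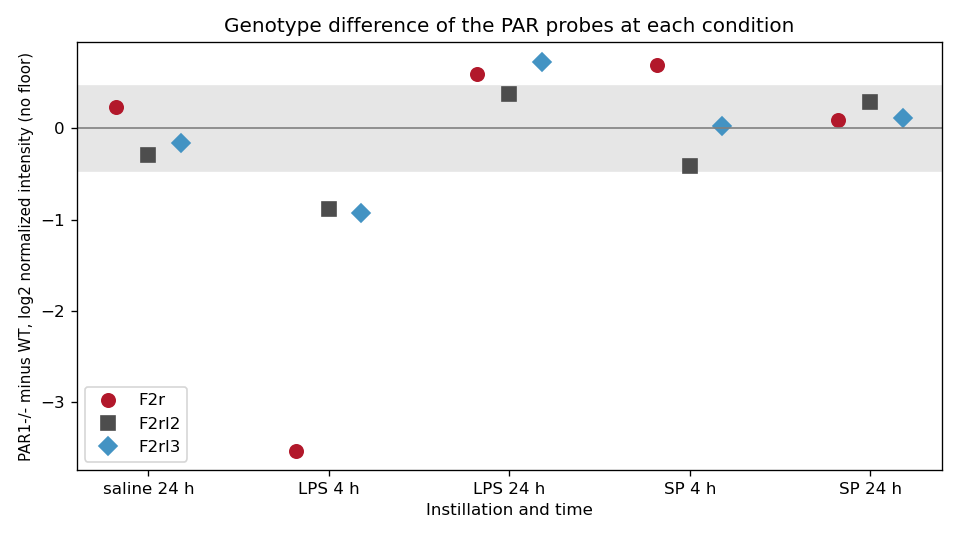
Log2 normalized intensity with no floor in PAR1-/- minus WT bladders (vertical axis) for F2r, F2rl2 and F2rl3 at each condition (horizontal axis); each point is 1 array against 1 array. The grey band is 1 SD (0.47) of the difference between the saline arrays over probes above background. F2r lay at -3.53 after LPS at 4 h, and the other points lay between -0.93 and 0.73, most of them from values under background.

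Across arrays, limma was fitted to 3386 probes above background on at least 1 array, with values under a common floor of 31.3 (normalized) raised to it. This floor is the normalized threshold of the LPS 24 h array of WT bladders, the array on which 87.0% of probes hold 1 value. Normalized thresholds on the other arrays ran from 11.9 to 21. F2r passed the common floor only after LPS at 4 h in WT bladders, so each of its effects rests on that array. The log2 difference was -0.52 ± 0.51 (SE) for PAR1-/- minus WT over 5 pairs of conditions, with a 95% interval from -1.94 to 0.90. It was 0.32 ± 0.68 for challenged minus saline arrays, -0.65 ± 0.64 for 24 h minus 4 h, and 0.65 ± 0.64 for LPS minus SP. The Benjamini-Hochberg adjusted p of limma was 1 in each of the 4 tests. The two-sided exact permutation p was also 1, but a probe above the floor on 1 challenged array can give no other value. The exact test therefore decides nothing here. For values that vary over all arrays, the smallest exact p is 0.0625 for genotype, 0.0222 for challenge and 0.0286 for time and stimulus. Of the probes tested, 0.295% were called for challenge and 0 for the other effects. Beside these 0 calls, limma gave an unadjusted p under 0.05 to 82 probes for genotype, 55 for time and 20 for stimulus, and with no floor it called 0, 3 (0.0886%) and 0. F2rl2 and F2rl3 were at the floor on all 10 arrays and had no test. With no floor their differences ran from -0.19 to 0.22, and F2r's time difference was -0.92 ± 0.49 (limma adjusted p = 0.916).

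The rule for genes whose pattern was most like that of F2r gave ties. At the common floor 163 of 1507 probes had a Pearson correlation of 1 with F2r over the 10 arrays, because they too passed the floor only on the LPS 4 h array of WT bladders. The brightest of these were Tnfsf4, a costimulatory ligand of T cells, at 652, the integrin subunit Itga4 at 361, the Polycomb gene Pcgf2 at 327, the homeobox gene Hoxd11 at 313 and the integrin subunit Itga5 at 309. With no floor the highest values were those of Clec3b (0.960), Csf2rb2 (0.958), Pcgf2 (0.956), Tnfsf4 (0.956) and Prg3 (0.954). These likenesses describe 1 array in 10.

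The genes around the receptors were read from 5 lists of 230 genes, of which 136 had a probe with values. The lists were chosen with earlier results of these data known, so their counts are not independent of these data. Of the 137 probes of these lists, 85 were above background on at least 1 array. In WT bladders 7 probes were more than 3-fold up in at least 1 comparison, against 3.49% of all probes, and in PAR1-/- bladders 0 were, against 1.41%. Below 0.333 of the saline level were 3 probes in some comparison, 1 each at 4 h in WT bladders with LPS, where 0.464% of all probes were, and in PAR1-/- bladders with LPS (0.424%) and SP (0.646%).

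The list of PAR-activating and related proteases, which also names coagulation cofactors, had 37 probes. On the WT arrays of 4 h, 1 of these probes was up with LPS (all probes 2.67%) and 1 with SP (1.72%). The median ratio of those with a value was 0.934 after LPS, against 1.09 for all probes. Tmprss15, enteropeptidase, which activates trypsinogen, went from 17 with saline to 107 at 4 h of LPS in WT bladders, a ratio of 3.38. Its PAR1-/- intensity was also 17 with saline, and its ratios there were 1.03 to 1.41. Tpsg1, the transmembrane tryptase of mast cells, gave 53 with saline in WT bladders, 367 and 140 with LPS at 4 and 24 h, and 983 and 37 with SP. Its ratios were 2.94, 1.42, 3.17 and 0.641. PAR1-/- bladders gave 71 with saline, 85 and 218 with LPS and 756 and 119 with SP, for ratios of 0.329, 0.742, 1.16 and 0.423. The tryptase was thus brightest on the SP arrays of 4 h in both genotypes. In PAR1-/- bladders its intensity rose there from 71 to 756, when the median of all probes before normalization was 2.22-fold. Its normalized ratio of 1.16 rests on log2 intensities divided by slopes of 0.78 for saline and 1.15 for SP. That ratio therefore does not show that the tryptase was unchanged. Mcpt1, a mast cell chymase, was above background with saline in PAR1-/- bladders, at 22, and was under background on the 4 challenged PAR1-/- arrays, at most 0.257 of saline at 4 h of SP. Among markers of mast cells, of 6 probes 0 were more than 3-fold up in any comparison, and 1 to 4 were above background on each array. Their summed normalized intensity ran from 294 (PAR1-/- SP at 4 h) to 509 (WT saline). Before normalization the sums on these arrays were 838 and 203, so their order is reversed by normalization.

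Inhibitors and cofactors of these proteases had 23 probes, and 1 (4.35%) was up, after LPS at 4 h in WT bladders, against 2.67% of all probes. Timp3, the matrix-bound inhibitor of metalloproteinases, went from 11 with saline to 68 at 4 h of LPS, at least 3.11-fold. It was 36 at 4 h of SP, at least 1.04-fold, and under background on the other WT arrays. On the PAR1-/- arrays it ran from 10 with saline to 32 at 4 h of SP.

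The G proteins through which PARs signal, and their regulators, had 22 probes and 0 beyond 3-fold in any of the 8 comparisons, in which 0.242 to 2.67% of all probes were above 3. The median ratios of those with a ratio ran from 0.809 to 1.24. Among effectors, with 31 probes, 0 were up and 1 was down, at 4 h of LPS in WT bladders, where 2.67% of all probes were up and 0.464% down. Prkcb, a protein kinase C that receptors coupled to phospholipase C activate, went from 117 with saline to 108 at 4 h of LPS in WT bladders, a normalized ratio of 0.329. Its other ratios were 0.381 to 1.19 in WT and 0.583 to 0.741 in PAR1-/- bladders.

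Genes of receptor trafficking had 24 probes, and 3 of them (12.5%) were up in WT bladders at 4 h of LPS and 3 at 4 h of SP, against 2.67 and 1.72% of all probes. Of the 24 probes 0 were up in PAR1-/- bladders, where 0.444 to 0.727% of all probes were, so the count is no sign of a difference. The median ratio of the trafficking probes was 0.996 with LPS and 1.13 with SP on these WT arrays, against 1.09 and 0.970 for all probes, near that of the array. Snx1, the sorting nexin that takes PAR1 to lysosomes, gave 28 with saline in WT bladders, 315 and 64 with LPS at 4 and 24 h, and 490 and 26 with SP. Its ratios at 4 h were 5.46 with LPS and 3.76 with SP, and those at 24 h were 1.22 and 0.909. PAR1-/- bladders gave 25 with saline, 178 and 126 with LPS and 271 and 133 with SP, with ratios of 2.43, 1.78, 1.82 and 1.78. Snx1 was thus above saline on all 4 challenged PAR1-/- arrays, by less than 3-fold.

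Rab3a, a small GTPase of regulated secretion, gave 7 with saline in WT bladders, and at 4 h 94 with LPS and 161 with SP. These are at least 4.31-fold and at least 3.82-fold. At 24 h it was under background in WT bladders. Its PAR1-/- intensities were 10 with saline, 15 and 28 with LPS and 34 and 20 with SP, and the only bound, for LPS at 24 h, was at least 1.31-fold. Arf1, a GTPase of vesicle coats, went from 14 with saline to 155 at 4 h of SP in WT bladders, 3.21-fold, and its bounds in PAR1-/- bladders were at least 1.03 to 1.19. Ap2a2, a subunit of the AP-2 clathrin adaptor that internalizes receptors, was 3.12-fold at 4 h of LPS in WT bladders. Its ratios in PAR1-/- bladders were 1.64 to 2.56, so it was above saline in both genotypes.

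**Figure D4:**
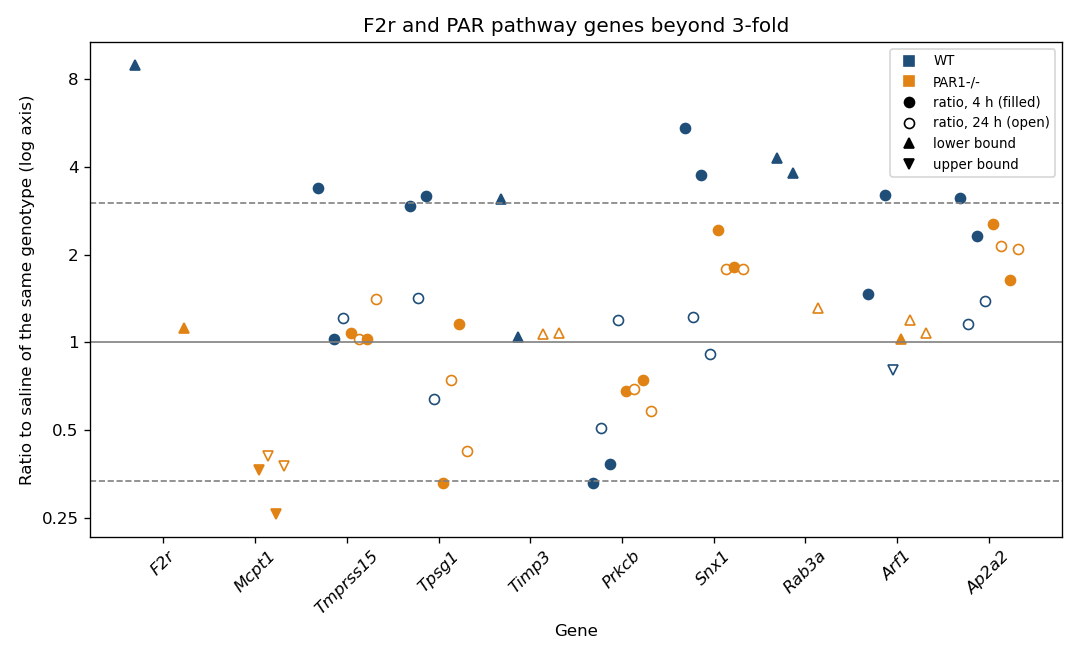
Ratio to saline of the same genotype (log axis) for F2r and the 9 pathway genes beyond 3-fold in some comparison, WT in blue and PAR1-/- in orange; for each gene the comparisons run from left to right, first WT and then PAR1-/-, each with LPS (4 h, 24 h) before SP (4 h, 24 h). Filled symbols are 4 h and open ones 24 h, triangles are lower (up) or upper (down) bounds, dashed lines mark 3-fold, and comparisons with no ratio are not drawn. All ratios and bounds above the upper dashed line are of WT bladders at 4 h, and F2r has the highest at 8.98.

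Markers of the cells that carry PARs were read beside F2r. On the LPS 4 h array of WT bladders, of 7 endothelial probes 2 were above background and 0 more than 3-fold up, and Pecam1, Kdr, Flt1, Eng and Icam2 were under background. The summed normalized intensity of the endothelial list was 211 after saline and 300 there, and it ran from 166 to 352 over the 10 arrays. Of 5 platelet probes 2 were above background and 0 were up, with sums of 174 and 165. Of 6 smooth muscle probes 3 were above background and 1 was up, with sums of 150 and 322. Of 6 fibroblast probes 2 were above background and 0 were up, with sums of 131 and 167. Urothelial markers had 1 of 3 probes above background and 0 up, with sums of 55.1 and 62.1. Nerve markers had 0 of 6 probes above background and 0 up, with sums of 104 and 92.6. The smooth muscle sum ran from 149 to 462 over the 10 arrays. It was highest on the PAR1-/- saline array, where 2 of the 6 probes were above background. Before normalization the sum was 164 there and 336 on the PAR1-/- SP 4 h array, which had the lowest normalized sum. The part of these cells in the F2r value was not tested.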

How the data were processed

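RNA of 10 pools of bladders was measured on Clontech Atlas arrays, with spots quantified by the authors in AtlasImage 2.7. As deposited, the values are scores: the log2 of each has a mean of 0 and an SD of 0.3333 over the 10 arrays of a probe. The design had taken them for intensities. The standardization was read from the values. Whole-number intensities that give these scores were searched up to 3000 and found for 4953 of 5030 probes (98.5%); in 500 simulated probes 99.8% were found. Levels assume that each probe's smallest such numbers are the true ones. The genotype of each array was taken from the design text of the series.

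Background was the density peak plus 3 SD of the values below it. Arrays were normalized with rlm (MASS 7.3.60.0.1, R 4.3.3) on 498 probes above background on all arrays. From the log2 intensities of each array the fitted intercept was subtracted, and the rest was divided by the fitted slope. Slopes ran from 0.78 (PAR1-/- saline) to 1.18 (PAR1-/- LPS at 24 h), so a normalized ratio also depends on them. Ratios above 3 or under 0.333 counted as changed. limma 3.58.1 tested 3386 probes; 1753 of them lay at the common floor on all 10 arrays and were given a p of 1. It was tested on simulated data with 200 of these 3386 probes changed by 2 on the log2 scale. It called 97.5% of them for genotype, 97% for challenge, 97.5% for time and 96% for stimulus. It also called 10, 11, 8 and 7 unchanged probes, in that order. These shares hold for the spread simulated there and do not give the power of the tests of F2r. The tests used an adjusted p of 0.05.

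The named genes were every PAR gene, up to 6 probes beyond 3-fold per pathway list, and the 5 probes most like each PAR gene above the floor, of ties the brightest. The PAR genes, the pathway and marker lists and the tests were chosen with earlier results of these data known. Probe names come from the platform annotation. Promoters come from RefSeq (GRCm38.p6), which was searched on both strands. Alternatives changed the threshold, floor, normalization, saline reference, ratio limit, filter and the arrays used. With 1 array per condition and few arrays, precision is limited, and p-values measure the spread between conditions.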

Additional observations from a re-analysis of the deposited data

Results flagged for a closer look

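After normalization, Tpsg1, the transmembrane tryptase, lay on opposite sides of saline in the genotypes at 4 h of LPS. It was at 2.94 times the saline level in WT and at 0.329 times in PAR1-/- bladders. Each value compares 1 array with 1 array, and the difference was not tested. Before normalization the WT intensity rose from 53 to 367, and the PAR1-/- intensity from 71 to 85.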

How the results depend on the processing

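The F2r bound for LPS at 4 h in WT bladders stayed beyond 3-fold under all alternatives run. Without normalization between arrays its bound was at least 15.6, the number of PAR ratios above 3 was 2 in place of 1, and the number of pathway probes up was 40 (29.2%, all probes 35.3%) in place of 7 (5.11%, all probes 4.46%). With quantile normalization that number was 4 (2.92%, all probes 4.36%), and with a ratio limit of 2 it was 15 (10.9%, all probes 12%). The pathway share was thus above that of all probes in the reported setting and below it in these 3. It was also below with equal 75th percentiles (5.84% against 7.43%) and with the mean of both saline arrays (3.65% against 3.78%). It stayed above with a threshold of 2 SD (5.11% against 4.99%) and with no floor (7.3% against 6.24%). The detection of the PAR genes depended on the threshold: at 2 SD F2r was above background on 8 arrays in place of 3, and at 5 SD F2rl2 was so on 0 in place of 2 and F2rl3 on 1 in place of 4. Raising values to the threshold of each array turned the challenge difference of F2rl3 to -0.14 and the time difference of F2rl2 to 0.39 (limma adjusted p = 0.94 and 0.103). Without the LPS 4 h array of WT bladders, or its PAR1-/- pair for genotype, the F2r differences were 0, since no other array passed the floor. The number of probes called for challenge was 10, and 0 with no floor, 72 without the WT saline array, 41 without the PAR1-/- saline array and 21 without the SP 24 h array of WT bladders. An alternative chosen after seeing the data left out the probes at the floor on every array, and gave F2r a limma adjusted p of 0.747 for genotype. The genotype test was paired by condition, over 5 pairs of arrays. No paired analysis was possible by animal or replicate number. The spots of the PAR genes lie near background on most arrays, which limits what a ratio can show.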
